A study of Brassica rapa with 23 samples.

Results

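A set of 142 genes of Brassica rapa was examined whose transcripts rose early with both chitin and flg22 and stood higher with chitin than with flg22 at 180 min. The set was drawn from 41020 genes and chosen by measured values of these same libraries. For each gene the mean of log2(FPKM + 1) was taken in each condition, where FPKM is the fragments of a gene scaled to the length of its model and to the size of the library. A member rose by at least 2 over water at 30 min with chitin and with flg22. At 180 min it stood at least 1.5 over water with chitin, between -1 and 1 of water with flg22, and at least 1 higher with chitin than with flg22. Its water level changed by less than 1.5 between 30 and 180 min. Bra021861, the homolog of the chitin receptor LYK5, met every one of these limits and was left out of the set by the rule that defined it. Because of this choice, the rises over water and the gap between chitin and flg22 at 180 min are given as descriptions without a test.

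Leaf discs of wild type plants of the cultivar Norang, grown for 17 days, were floated on water, on 100 µg/ml chitin or on 100 nM flg22 for 30 or 180 min. The first true leaf was the labelled tissue, and each biological replicate pooled 15 discs of 100 mm2. The 23 libraries comprised 5 with water for 30 min, 3 with chitin for 30 min, 3 with flg22 for 30 min, 6 with water for 180 min, 3 with chitin for 180 min and 3 with flg22 for 180 min. All plants, the water controls included, were wild type, and all values come from cut discs. No annotation of the build gave names to leaf marker genes, so the labelled tissue was not checked against markers.

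Plants recognise conserved microbial molecules, called microbe-associated molecular patterns, through receptors at the cell surface. Chitin is a polymer of the fungal cell wall that Arabidopsis perceives through LysM receptor kinases such as CERK1 and LYK5, and flg22 is a peptide of bacterial flagellin that is perceived through the receptor kinase FLS2. Both lead to pattern-triggered immunity, in which calcium influx, reactive oxygen and kinase cascades are followed within minutes by a large change of transcription. The study asked how far the responses to both molecules overlap in this crop and how they differ over time. None of the 142 identifiers had a name in the sources used, so members are given by identifier, position, level and time course. Positions are those of build v1.5 of the B. rapa chromosomes.

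Libraries held between 4.09 and 5.64 aligned gigabases, with a median of 4.72, and 30.1% to 33.2% of all genes were listed at 0. One water library stood apart for the members. Its median over the 142 genes was 0.77 above the mean of the water libraries at 180 min on the log2(FPKM + 1) scale, whereas the other 5 lay between -0.47 and 0.10. It was replicate 1 with title number 7, and it was the highest of the 6 water libraries in 121 of 142 members. The flg22 libraries at 180 min had medians of 0.79, 0.47 and 0.16, so this water library lay within their range. Without it the rule found 147 genes, of which 124 were members. At 30 min the water library of replicate 3 with title number 17 was highest in 90 members, with a median of 0.46 against -0.36 to 0.12 in the other 4, and without it the rule found 145 genes, 141 of them members.

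The study kept separate water controls for chitin and for flg22, with replicate 1 at 30 min shared by both. Which water library belongs to which treatment was taken from the title numbers, since the water titles do not name the treatment. The rule pooled all water libraries of a time. Between both sets of controls at 30 min, the members had a median difference of -0.30, lower in the controls of chitin, compared with -0.15 over all genes tested. Of the members 2 passed the test of this difference (limma, Benjamini-Hochberg adjusted p under 0.05), or 1.41%, compared with 3.52% of all genes tested. At 180 min the median difference was 0.03 in the members and -0.09 over all genes tested, and 0 members passed. At an unadjusted p under 0.05, 0 members were lower and 6 higher, compared with 2418 lower and 561 higher of all 24384 genes tested. The control that stood apart at 180 min belonged to chitin. With each treatment set against its own controls the rule found 151 genes, of which 120 were members.

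**Figure D1:**
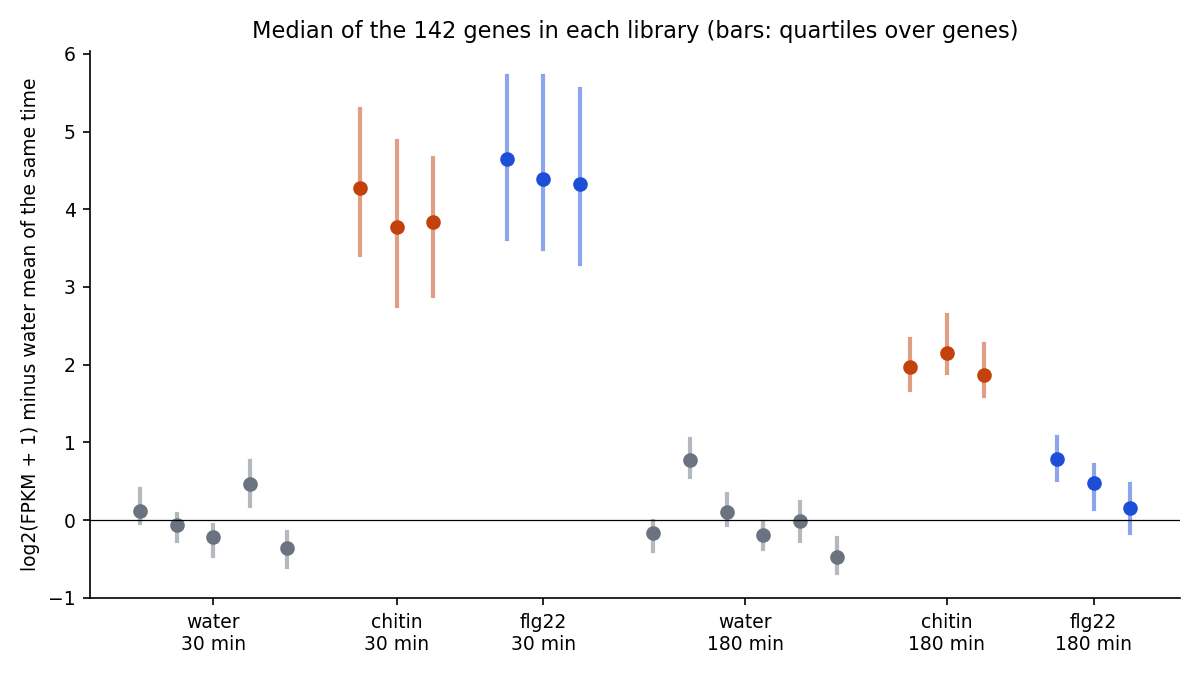
Median over the 142 genes of log2(FPKM + 1) minus the water mean of the same time (y axis) in each of the 23 libraries, grouped by condition on the x axis, with bars from the first to the third quartile over genes. Chitin libraries at 180 min lie between 1.86 and 2.15, flg22 libraries at 180 min between 0.16 and 0.79, and a single water library at 180 min reaches 0.77.

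The time course of the set was a strong rise with both molecules followed by an uneven return. At 30 min the median rise over water was 3.99 with chitin and 4.40 with flg22. The ranges were 2.03 to 6.95 and 2.02 to 7.95 in 141 members, leaving out Bra017264, which was listed at 0 in every water library. At 180 min the median stood at 1.95 over water with chitin (range 1.51 to 4.19) and at 0.51 with flg22 (range -0.54 to 0.99). All genes tested had medians of -0.46 and -0.47 at 30 min, which became -0.04 and -0.05 after median-ratio scaling, and the members' median rises became 4.48 and 4.88 under that scaling. The gap of chitin over flg22 at 180 min had a median of 1.60, with a range of 1.00 to 3.33 without Bra017264, and the water level shifted by a median of 0.08 between the times.

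Between 30 and 180 min the members fell with both molecules, by different amounts. The change from 30 to 180 min had a median of -1.67 with chitin and of -3.81 with flg22. Expressed as a share of the 30 min rise on the log2 scale, 52.5% was left with chitin (range 24.4% to 154%) and 12.0% with flg22 (range -15.1% to 37.0%). More than 50% of the rise was left in 83 members with chitin, and the highest share with flg22 was 37.0%. More than 20% was left in 21 members with flg22, and the lowest share with chitin was 24.4%. Both kinds of share were bounded by the limits that the rule set at 180 min. Changes between the times and shares left, here and below, are on FPKM without further scaling. After median-ratio scaling the median rise was 4.48 at 30 min and 2.06 at 180 min with chitin, and 4.88 and 0.48 with flg22. The flg22 level at 180 min was still above the water mean in 124 members and at or below it in 18.

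Library by library, every chitin value at 180 min lay above every flg22 value at 180 min in 138 of 142 members, against 14.4% of the 24384 genes tested. Every chitin value also lay above every water value at 180 min in 135 members, against 20.1% of genes tested. Both counts follow from the choice of members. The flg22 and water libraries at 180 min overlapped in 126 members. In 16 members, such as Bra015475 and Bra008667, they did not. This overlap was not counted over all genes tested, and it follows in part from the limit the rule set for flg22 at 180 min. The water library of replicate 1 with title number 7 alone reached the lowest flg22 library in 122 members. The overlap was not counted without that library. In 105 members the lowest flg22 library at 180 min was replicate 3, and in 117 the highest was replicate 1. Leaving out flg22 replicate 3 reduced the set to 106 genes, all of them members, and leaving out flg22 replicate 1 raised it to 161, of which 137 were members.

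With both molecules at 30 min and with chitin at 180 min the highest FPKM of the set was that of Bra000884 on chromosome A03, from 13716673 to 13717051 on the plus strand. Its FPKM in water at 30 min was 233, 181, 98.1, 467 and 108. It reached 3108, 2437 and 2558 with chitin and 3663, 2473 and 2685 with flg22 at 30 min. After 180 min FPKM was 925, 1084 and 780 with chitin and 337, 294 and 207 with flg22, while water ranged from 103 to 425 with a median of 185. The chitin libraries at 180 min thus lay above all others of that time. The flg22 libraries lay inside the range of water only through its highest value, 425, of replicate 1 with title number 7. The other water libraries at 180 min held 103 to 203, below every flg22 library. On the log2(FPKM + 1) scale it stood 2.27 ± 0.40 (SE of the fit) over water with chitin and 0.52 ± 0.40 with flg22 at 180 min.

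Bra025874 (A06, 8338127 to 8339429, minus strand) followed the same course. Its FPKM in water at 30 min was 124, 140, 72.5, 238 and 79.5, and it rose to 2838, 1754 and 2036 with chitin and to 3049, 2611 and 2307 with flg22. At 180 min chitin libraries held 787, 894 and 742, flg22 libraries 372, 302 and 217, and water 74.1 to 286 with a median of 161. All chitin libraries were above every flg22 or water library at that time, and 2 of 3 flg22 libraries exceeded the highest water library. The gap of chitin over flg22 was 1.47 ± 0.40.

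Among the other abundant members, Bra011916 (A07, 13586182 to 13587422) had a mean FPKM of 1573 ± 442 (SD, n = 3) with chitin at 30 min and of 676 ± 64.6 at 180 min, against 1843 ± 336 and 291 ± 43.6 with flg22. Bra016433 (A08, 17679063 to 17680359) had the largest rise of the water level between the times, of 1.34, from 106 ± 58.0 (n = 5) to 255 ± 131 (n = 6). With chitin it changed little between the times, from 1492, 670 and 837 to 717, 861 and 515, whereas with flg22 it went from 1405, 967 and 741 to 242, 229 and 180. The flg22 values at 180 min were all inside the water range of 129 to 477.

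Bra035384 lies on Scaffold000104 (453845 to 456415) and is 1 of 2 members on an unplaced scaffold. Its FPKM at 30 min was 1512, 886 and 859 with chitin, 1805, 1873 and 1548 with flg22, and 32.6, 32.7, 18.6, 47.2 and 16.6 with water. At 180 min the values were 268, 312 and 200 with chitin, 107, 64.7 and 62.2 with flg22, and 18.7 to 82.1 with water. Every flg22 library was above every chitin library at 30 min and every chitin library above every flg22 library at 180 min. Bra017764 (A03, 30357511 to 30357879, minus strand) showed the same order, with a mean of 911 ± 173 with chitin and of 1333 ± 70.2 with flg22 at 30 min, and of 110 ± 24.4 and 36.5 ± 11.1 at 180 min. Only 29.9% of its log2 rise with chitin was left at 180 min, and 1.42% with flg22.

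Bra004839 (A05, 2080458 to 2083229) belonged to the 5 members with the highest water level. Its FPKM with chitin was 1038, 494 and 618 at 30 min and 642, 773 and 545 at 180 min, so both times overlapped. With flg22 it fell from 969, 676 and 644 to 273, 305 and 256, against water values of 98.4 to 263 at 180 min. The change with chitin from 30 to 180 min was -0.08 on the log2 scale and that with flg22 was -1.43.

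**Figure D2:**
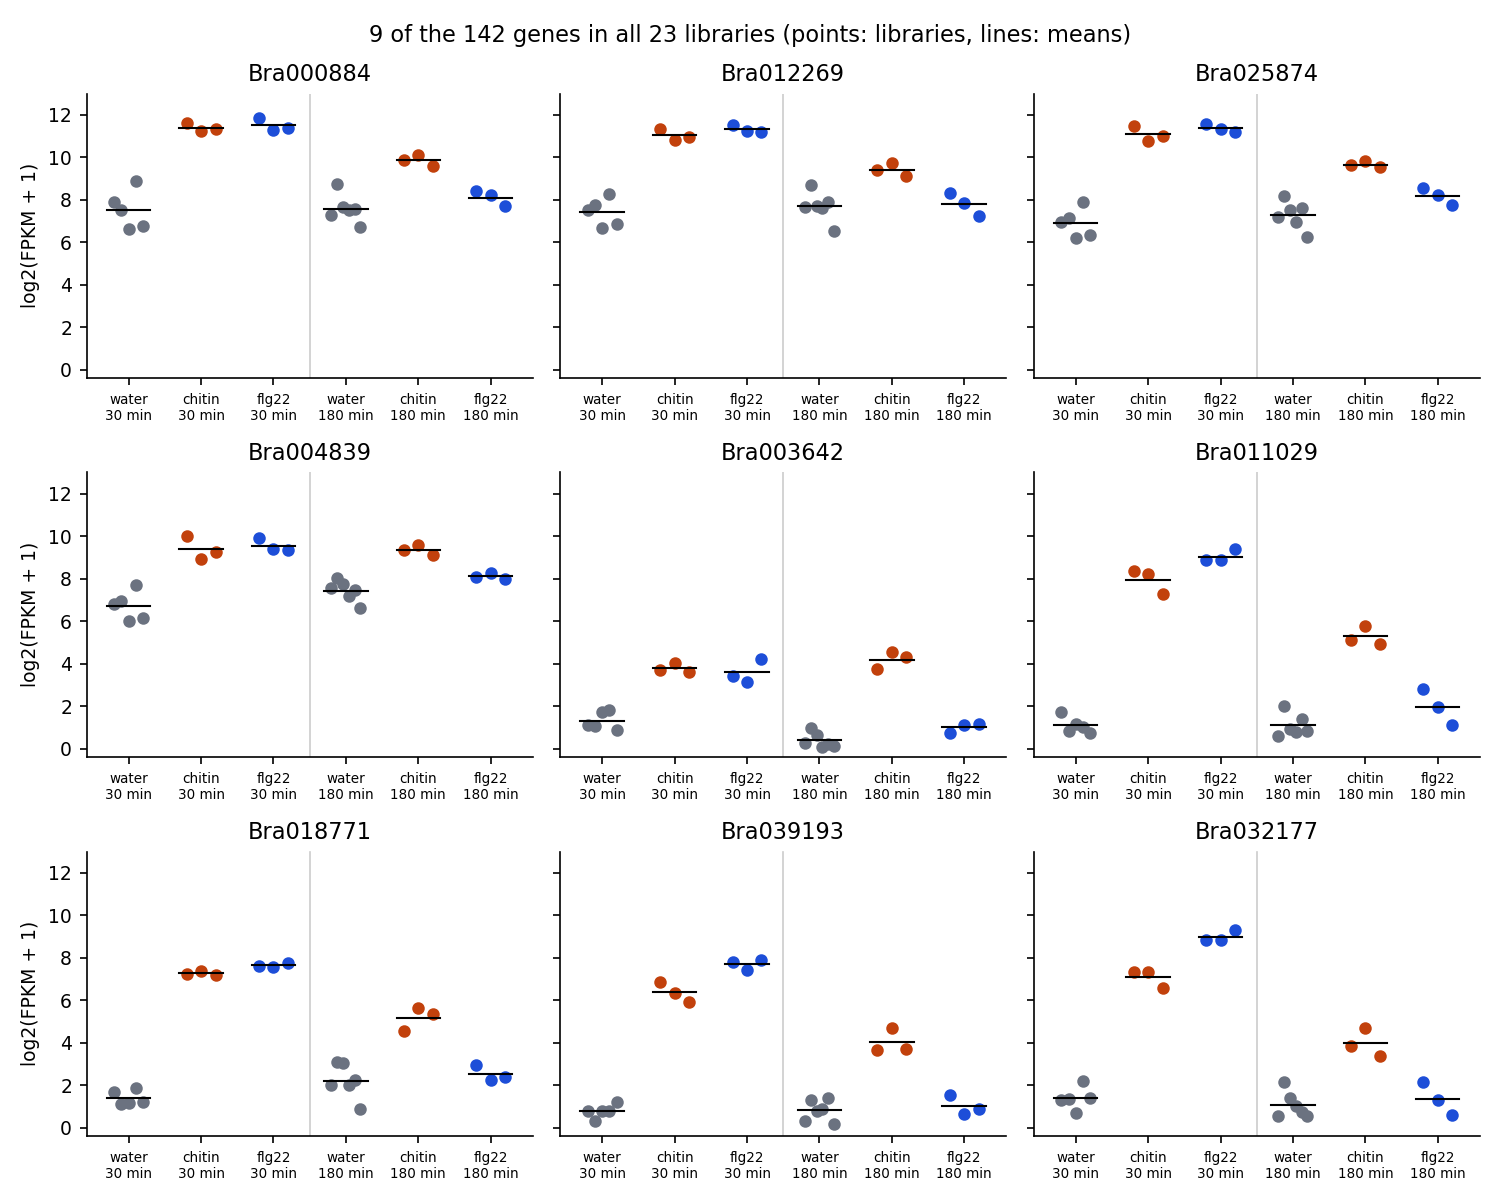
log2(FPKM + 1) of 9 of the 142 genes (y axis) in all 23 libraries, 1 point per library, grouped by condition on the x axis, with a line at each mean. In each panel the chitin points at 180 min lie above the flg22 points at 180 min, and in Bra003642 the chitin mean at 180 min is 0.40 above that at 30 min.

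The members with the widest gaps between chitin and flg22 at 180 min are described next. Bra017264 (A04, 15783285 to 15785044) was listed at 0 in all 11 water libraries and in all 3 flg22 libraries at 180 min. It held 320, 350 and 313 with chitin and 493, 501 and 537 with flg22 at 30 min, and 0, 46.0 and 38.2 with chitin at 180 min. No fold is given for it, since a listed 0 can be a failed estimate and 1 of its 3 chitin libraries at 180 min was also at 0. It is counted among the members and left out of the ranges above.

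Bra011029 (A01, 4347623 to 4347844, minus strand) had the widest gap among members detected in every library. Its FPKM in water at 30 min was 2.34, 0.782, 1.26, 0.998 and 0.664. It rose to 330, 295 and 153 with chitin and to 472, 462 and 670 with flg22. By 180 min it stood at 33.8, 54.4 and 29.6 with chitin and at 5.90, 2.85 and 1.19 with flg22, with water from 0.507 to 3.08. Chitin libraries were all above flg22 libraries, and 2 of the 3 flg22 libraries lay inside the water range. The top of that range, 3.08, was replicate 1 with title number 7, and the next highest water library held 1.59. The log2 gap was 3.33 ± 0.40, and the rise with chitin at 180 min, 4.19 ± 0.34, was the largest in the set.

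Bra003642 (A07, 17481624 to 17481941, minus strand) was the member that kept the largest share of its chitin rise. It held 12.2, 15.4 and 11.3 with chitin at 30 min and 12.3, 22.5 and 18.6 at 180 min. With flg22 it fell from 9.76, 7.82 and 17.8 to 0.657, 1.16 and 1.21. Water was 1.16, 1.12, 2.27, 2.57 and 0.825 at 30 min and 0.0691 to 0.961 at 180 min. The share of the rise left was 154% with chitin and 26.9% with flg22, and the water level under it had itself dropped. Its gap at 180 min was 3.20 ± 0.30 and became 4.01 with a pseudocount of 0.1.

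Bra039193 (A09, 33114071 to 33114325, minus strand) had 115, 79.8 and 58.6 with chitin and 224, 170 and 236 with flg22 at 30 min. At 180 min the values were 11.6, 24.6 and 12.0 with chitin and 1.91, 0.549 and 0.813 with flg22, against 0.131 to 1.66 with water. The order of both treatments was thus turned between the times without overlap. Bra033972 (A02, 9531988 to 9532188) held 50.6, 20.9 and 52.5 with chitin and 64.7, 33.4 and 24.3 with flg22 at 30 min, which overlapped. At 180 min it held 12.2, 22.3 and 27.3 with chitin and 2.45, 1.67 and 0.925 with flg22, and 83.0% of its chitin rise was left against 3.16%.

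Bra015475 (A10, 1088355 to 1088567) was nearly silent in water, at 0.181, 0, 0, 0.207 and 0 at 30 min and at most 0.178 at 180 min. It rose to 57.5, 39.9 and 28.3 with chitin and to 90.6, 84.4 and 109 with flg22, and stood at 15.0, 17.4 and 9.06 with chitin and at 1.49, 0.713 and 0.553 with flg22 at 180 min. Each flg22 library at 180 min remained above every water library of that time. Its gap was 2.93 ± 0.23.

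The remaining members of the 10 with the widest gaps were Bra002331 (A10), Bra035035 (A07), Bra018771 (A06) and Bra016319 (A08), with gaps of 2.70 ± 0.37, 2.67 ± 0.50, 2.65 ± 0.40 and 2.65 ± 0.37. In Bra018771 FPKM was 151, 167 and 143 with chitin and 196, 186 and 212 with flg22 at 30 min, and 22.2, 49.1 and 39.5 against 6.73, 3.71 and 4.20 at 180 min. In Bra016319 the flg22 values at 180 min, 7.98, 4.61 and 3.94, lay inside the water range of 3.84 to 17.3, and the chitin values were 34.5, 36.6 and 45.3. In Bra035035 chitin held 13.7, 26.5 and 29.5 at 180 min and flg22 3.18, 2.10 and 2.70. In Bra002331 chitin held 16.7, 22.8 and 22.5 at 180 min and flg22 2.54, 1.68 and 2.77. In all 4 genes the treatments did not overlap at 180 min.

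Of these 10 genes, 8 had a span under 500 bp from start to end of the gene model, compared with 29 of all 142 members. The median gap at 180 min was 2.08 in the 29 short members and 1.5 in the other 113, and the spread between libraries of a condition was larger in the short ones, with a median residual SD of 0.57 against 0.46. FPKM divides by length, so that short models rest on fewer fragments at the same value. The part of gene length in these gaps was not tested.

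**Figure D3:**
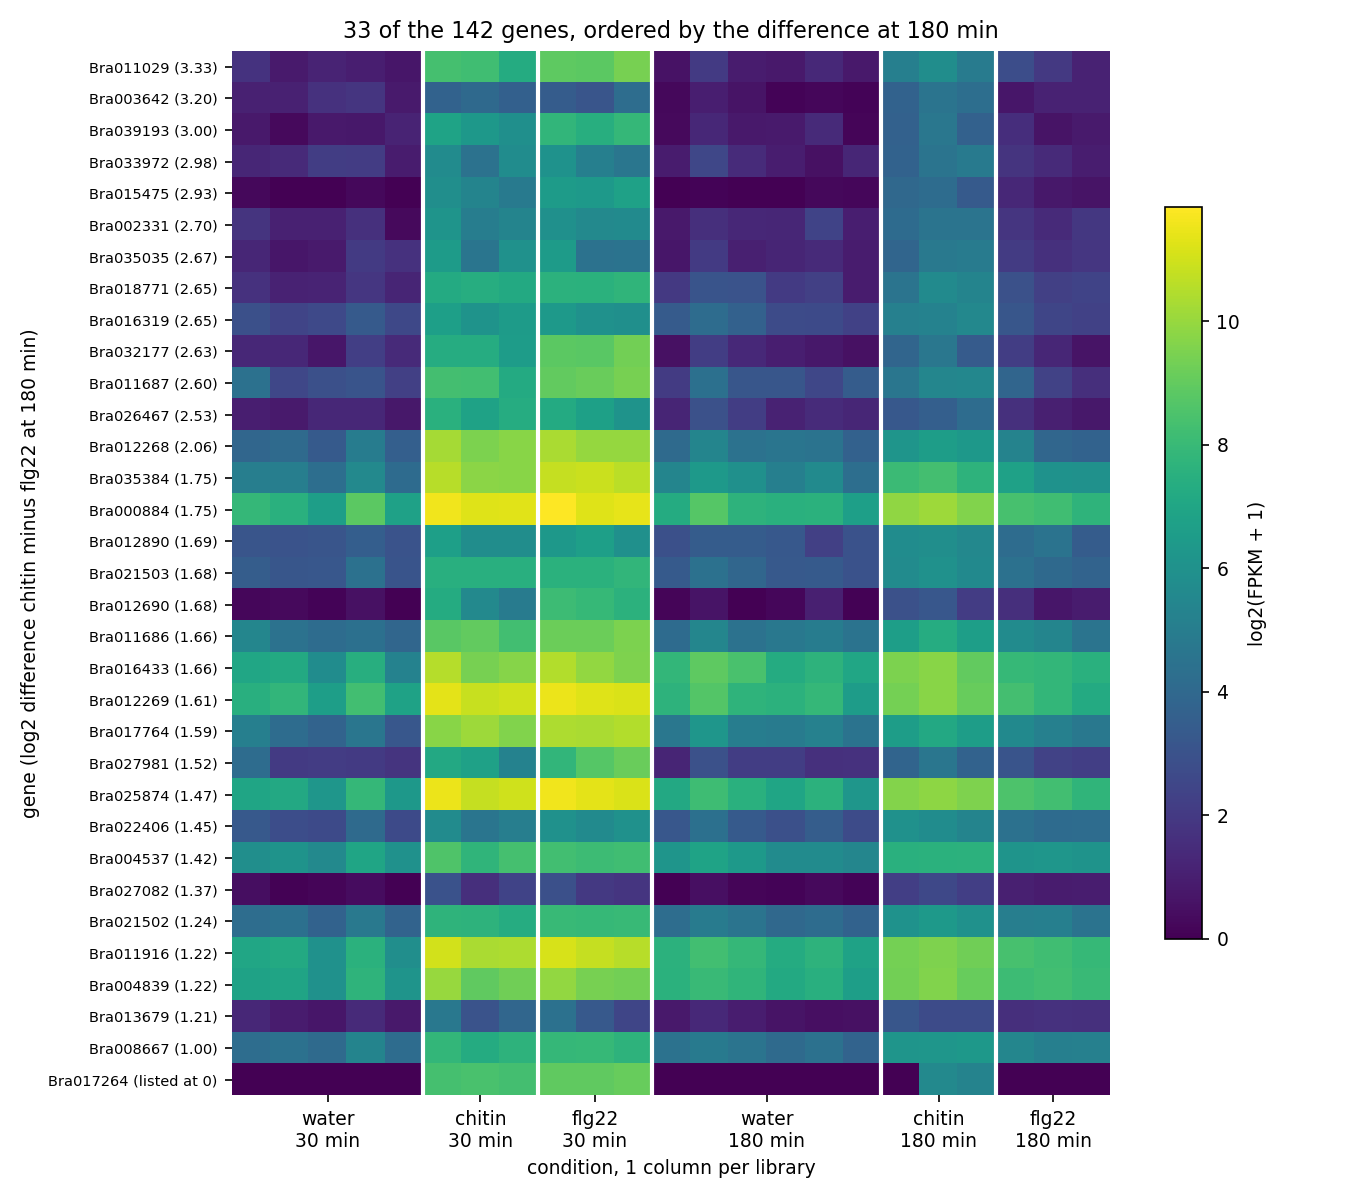
log2(FPKM + 1) of 33 members (y axis, ordered by the log2 gap of chitin over flg22 at 180 min, given in brackets) in each library (x axis, 1 column per library, grouped by condition). The chitin columns at 180 min are brighter than the flg22 columns at 180 min, and the gap runs from 3.33 in Bra011029 to 1.00 in Bra008667. Bra017264, listed at 0 with water and with flg22 at 180 min, is at the bottom without a gap.

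In 6 members the chitin mean at 180 min was above that at 30 min, and in 33 both lay within 1 on the log2 scale. With flg22 the means of both times lay within 1 in 0 members. The rule asked for a flg22 rise of at least 2 at 30 min and under 1 at 180 min. Apart from shifts of the water level, the fall with flg22 thus follows from the choice of members. These counts were not made over all genes tested. Apart from Bra003642 the 6 were Bra022406, Bra027082, Bra007828, Bra014636 and Bra029663, of which the last 3 were picked after their values were seen. Bra022406 (A05, 18633733 to 18635475) held 50.8, 23.6 and 32.4 with chitin at 30 min and 63.4, 52.6 and 39.5 at 180 min, which overlapped. Its flg22 values fell from 62.5, 49.8 and 61.7 to 20.5, 16.6 and 17.1. Bra014636 (A04, 1924674 to 1925603) held 671, 298 and 464 with chitin at 30 min and 451, 463 and 495 at 180 min, and its flg22 values went from 652, 493 and 494 to 134, 120 and 128. On unscaled FPKM these genes were level with chitin, and the fall with flg22 was set by the rule. The median-ratio factors of the chitin libraries were 0.757 to 0.800 at 30 min and 0.985 to 1.06 at 180 min. Scaling by them lowers the values at 180 min relative to those at 30 min. The counts of 6 and 33 were not repeated after scaling.

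A direct comparison of chitin with flg22 at 30 min was not fixed by the rule, which set a lower limit for each rise and none for their difference, although the libraries are the same. Chitin was lower than flg22 in 124 of 142 members, with a median difference of -0.44 and a range of -2.16 to 0.54. The difference was -1 or less in 31 members and 1 or more in 0. Every flg22 library was above every chitin library in 61 members, against 7.51% of genes tested, and the reverse held in 0 members, against 9.28%. The shares in other early genes are given below. By limma with Benjamini-Hochberg adjustment over all 24384 genes, 10 members were lower with chitin at an adjusted p under 0.05, against 0.837% of genes tested, and 0 were higher, against 0.55%. At an unadjusted p under 0.05 these counts were 42 and 0 in the members, and they were not made over all genes tested.

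The call of these 10 genes depended on the fit. With a pseudocount of 0.1, and again in a fit of the 6 libraries alone, 0 members passed. At an unadjusted p under 0.05 there were 28 and 59, again not counted over all genes tested. Without chitin replicate 3 the count was 3, without flg22 replicate 2 it was 5, and without chitin replicate 1 it was 15. With each treatment set against its own water controls, a comparison run after the data were seen, the median difference at 30 min was -0.06 in the members and 0.15 over all genes tested. It was below 0 in 79 of 142 members, compared with 22.6% of all genes tested. In that comparison 0 members passed, and 0.127% of all genes tested passed in either direction. At an unadjusted p under 0.05, 23 members were lower and 1 higher, compared with 435 lower and 1466 higher of all 24384 genes tested. The gap at 180 min kept a median of 1.52, with 1 member below 0.

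Among the 10 genes, 8 had a mean water level under an FPKM of 1 at 30 min, and the median standard error of the difference was 0.23, compared with 0.37 in the other 132. Of the 10, Bra015475, Bra021491, Bra023875, Bra030694, Bra032435 and Bra040019 had no water library at an FPKM of 1. Thus they passed the filter on low values through treated libraries only, which held for 11 of all 142 members. Bra012690 (A03, 22746731 to 22748263) held 157, 47.2 and 29.0 with chitin and 274, 240 and 196 with flg22 at 30 min, from 0.149, 0.230, 0.0910, 0.460 and 0.0265 in water. The difference was -1.94 ± 0.42 (limma, adjusted p = 0.0207), and all 3 flg22 libraries were higher. Against its own controls it was -1.72 ± 0.57 (limma, adjusted p = 0.385). At 180 min the order was the opposite, with 6.55, 8.28 and 3.28 with chitin against 1.99, 0.636 and 0.880 with flg22.

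Bra032177 (A04, 10650901 to 10651161) held 161, 160 and 93.0 with chitin and 457, 454 and 633 with flg22 at 30 min, a difference of -1.92 ± 0.44 (limma, adjusted p = 0.0316). At 180 min chitin held 13.6, 25.0 and 9.41 and flg22 3.44, 1.44 and 0.522. Bra015475, described above, differed by -1.20 ± 0.23 at 30 min (limma, adjusted p = 0.00863). Against their own controls Bra032177 and Bra015475 differed by -1.44 ± 0.57 and -1.11 ± 0.31 (limma, adjusted p = 0.524 and 0.243). The widest difference, in Bra027981 (A09, 10725861 to 10726415, minus strand), was -2.16 ± 0.56 from 140, 107 and 37.4 with chitin and 223, 418 and 556 with flg22, and it did not pass (limma, adjusted p = 0.0608). The other 7 genes that passed, Bra040019, Bra030694, Bra032435, Bra023875, Bra021491, Bra040605 and Bra025041, fell outside the naming rule and were picked after their values were seen. Their differences ran from -1.52 in Bra030694 to -0.87 in Bra025041.

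The members with the largest positive difference at 30 min were Bra035035, Bra026467 and Bra013679, at 0.54 ± 0.50, 0.54 ± 0.39 and 0.50 ± 0.39, none of which passed (limma, adjusted p = 0.601, 0.498 and 0.53). In Bra026467 (A09, 3118212 to 3119718) chitin held 182, 114 and 159 and flg22 151, 105 and 66.9 at 30 min, which overlapped. At 180 min chitin held 8.56, 11.1 and 17.3 and flg22 2.10, 1.07 and 0.713, against a water range of 1.20 to 6.68. Its flg22 difference from water of -0.54 was the lowest in the set. Bra013679 (A01, 7086892 to 7089660, minus strand) varied widely between replicates at 30 min, from 7.28 to 26.1 with chitin and from 4.63 to 20.6 with flg22.

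**Figure D4:**
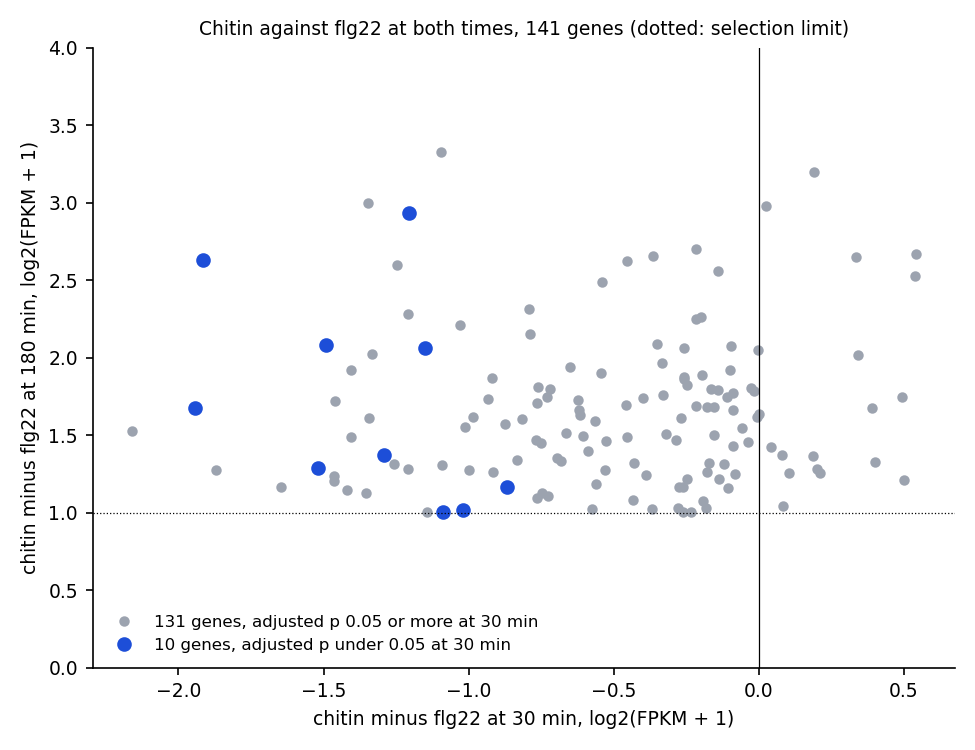
Log2 difference of chitin minus flg22 at 30 min (x axis) and at 180 min (y axis) for 141 of the 142 genes (without Bra017264), in units of log2(FPKM + 1). The 10 larger points passed the test at 30 min, and the dotted line marks the limit of 1 that the rule set at 180 min, so that only the spread along the x axis was free.

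Across the 142 genes the difference at 30 min and that at 180 min, which share no library, had a Pearson r of 0.04 and a Spearman rho of 0.06. The rises with chitin and flg22 at 30 min, which share the water libraries, are given only by their ranges above. The same direct difference was computed for early genes outside the set. Of the 1000 genes that rose by 2 or more with both molecules at 30 min, 289 stood between -1 and 1 of water with both at 180 min, and 187 stood at 1.5 or more over water with both. Their median differences at 30 min were -0.41 and -0.70, compared with 0.01 over all genes tested. The difference was below 0 in 87.3% of members, 81.7% of the genes lost with both, 94.7% of those kept with both and 49.1% of all genes tested. Every flg22 library was above every chitin library in 43.0% of members, 36.0% of the genes lost with both and 33.7% of those kept with both. Of the genes lost with both, 40 (13.8%) passed the test as lower with chitin. Of those kept with both, 9 (4.81%) did, compared with 7.04% of members. These values compare the treatments without their controls. With each treatment against its own controls the medians were -0.20 in the genes lost with both and -0.08 in those kept with both. As lower with chitin 5 and 0 passed. At an unadjusted p under 0.05, 63 and 16 were lower, compared with 435 of all 24384 genes tested.

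**Figure D5:**
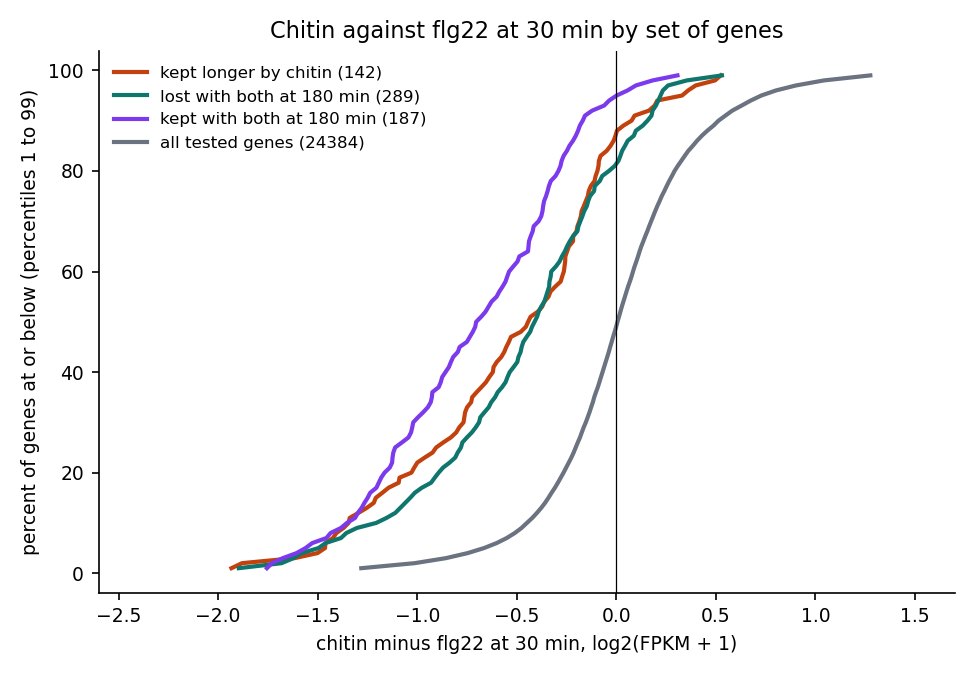
Percent of genes (y axis, percentiles 1 to 99) at or below each log2 difference of chitin minus flg22 at 30 min (x axis, log2(FPKM + 1)) for the 142 members, the 289 early genes lost with both at 180 min, the 187 kept with both and all 24384 genes tested. The treatments are compared directly, without their water controls. The curve of the members runs close to that of the genes lost with both, with medians of -0.44 and -0.41.

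Members came from all 10 chromosomes, with the most on A09 and A01, which held 17.6% and 14.1% of members and 14.2% and 9.49% of the genes tested. The median span was 1233 bp, compared with 1606 bp in the early genes lost with both, 1320 bp in those kept with both and 1720 bp in all genes tested. A span under 500 bp was found in 20.4%, 9.69%, 16.6% and 7.34% of these groups. The median water level was an FPKM of 5.77 in the members, 5.87 and 4.37 in the other early groups, and 9.82 in all genes tested. These are descriptions of lists that were themselves chosen by their values. All 142 members passed the filter on low values, which asked for an FPKM of 1 in at least 3 libraries, and 11 of them passed through treated libraries only.

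Pairs of members lay side by side at 3 places, each on the same strand. Bra011687 (A01, 1056549 to 1056917) and Bra011686 (1058218 to 1058592) were 1300 bp apart. Bra011687 held 313, 302 and 152 with chitin and 506, 557 and 686 with flg22 at 30 min, and 24.1, 41.9 and 43.4 with chitin and 13.4, 3.97 and 2.03 with flg22 at 180 min. Bra011686 held 447, 503 and 300 with chitin and 581, 573 and 735 with flg22 at 30 min, and 97.7, 158 and 100 with chitin and 51.1, 40.4 and 22.2 with flg22 at 180 min. Both had flg22 above chitin at 30 min and the opposite at 180 min in every library, and in both the flg22 and water libraries overlapped at 180 min.

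Bra012269 (A07, 11175574 to 11176865) and Bra012268 (11180563 to 11181839) were 3697 bp apart. Both rose steeply at 30 min from unlike water levels, to means of 2130 ± 404 and 934 ± 257 with chitin from 183 ± 83.3 and 16.1 ± 8.44 in water. At 180 min the chitin libraries held 667, 856 and 548 in Bra012269 and 71.9, 96.5 and 78.9 in Bra012268, and the flg22 libraries 318, 231 and 148 and 38.5, 14.0 and 12.1. The gap between treatments was 1.61 ± 0.42 and 2.06 ± 0.42. Bra021503 (A01, 24090830 to 24091456) and Bra021502 (24093200 to 24093844), 1743 bp apart, were nearly level at 30 min, with 178, 176 and 176 in Bra021503 and 208, 198 and 162 in Bra021502 with chitin, and 186, 186 and 218 and 250, 243 and 248 with flg22. At 180 min Bra021503 held 50.6, 63.3 and 47.8 with chitin and 20.3, 15.6 and 12.8 with flg22, and Bra021502 64.5, 82.6 and 63.1 and 32.9, 33.8 and 21.5. Their gaps of 1.68 ± 0.31 and 1.24 ± 0.27 stood without overlap of the treatments. Whether these neighbours are alike in sequence was not examined, and how shared reads were divided is not given in the sources used here. The values of a pair may therefore not be independent.

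Several members lay close to a limit of the rule. The nearest inside were Bra022406, with a chitin rise of 2.03 at 30 min, Bra027082, with a flg22 rise of 2.02, Bra004537, with 1.51 over water with chitin at 180 min, Bra012890, with 0.99 over water with flg22 at 180 min, and Bra008667, with a gap of 1.00. The nearest genes outside, each missing 1 limit, were Bra000033 with a chitin rise of 1.97, Bra022345, just under 1.5 with chitin at 180 min, Bra013470, just over 1 with flg22 at 180 min, and Bra015219, with a gap just under 1. The limit on chitin at 180 min alone kept out 108 genes, that on flg22 at 180 min 116, that on the gap 29 and that on the chitin rise at 30 min 11. With every limit stricter by 0.25 the set held 63 genes.

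Bra004537 (A05, 687357 to 690331) held 182, 190 and 193 with chitin, 68.6, 74.4 and 66.0 with flg22 and 42.4 to 117 with water at 180 min. Bra012890 (A03, 21737348 to 21738364) held 53.3, 57.3 and 45.6 with chitin and 17.1, 21.7 and 9.72 with flg22, against 3.67 to 10.0 in water, so that only the lowest flg22 library reached the water range. Bra008667 (A10, 12108650 to 12111471) held 70.7, 73.7 and 77.4 with chitin and 42.3, 33.0 and 34.3 with flg22, and both stood above every water library, which ranged from 12.8 to 28.8. Bra027082 (A09, 8747662 to 8752558) held 6.87, 2.02 and 4.14 with chitin at 30 min and 3.52, 4.96 and 3.65 at 180 min. The level of Bra027082 with flg22 fell from 6.43, 2.90 and 2.57 to 1.03, 0.866 and 0.901, and its water libraries did not exceed 0.393.

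The receptor homologs of this genome give the context at the level of perception. Of 12 homologs of receptor genes, 9 were tested against water. Bra021861 (LYK5, A04, 15018935 to 15023059) held 61.1, 77.1 and 106 with chitin and 48.4, 80.6 and 69.2 with flg22 at 30 min, from 2.17, 2.62, 2.60, 3.80 and 1.56 in water. At 180 min it held 9.95, 8.24 and 10.8 with chitin and 2.22, 2.54 and 1.00 with flg22, against 1.15 to 3.75 in water. The LYK5 homolog rose by 4.53 ± 0.26 with chitin and by 4.24 ± 0.26 with flg22 at 30 min. At 180 min it stood at 1.74 ± 0.26 with chitin and at -0.16 ± 0.26 with flg22. The rule names this gene and its values met every limit, so they are given as a description without a p-value.

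Across the 9 homologs, LYK5 included, 4 rose and 1 fell with chitin at 30 min, where 65% of genes tested passed in either direction. With flg22 at 30 min 4 rose and 1 fell, where 68.1% passed. At 180 min 6 rose and 2 fell with chitin, against 54.6% of genes tested, and 4 rose and 2 fell with flg22, against 41.3%. Bra021861 was among those that rose in every comparison but that of flg22 at 180 min. Its values met the limits of the rule, so its part in these counts is no test. Bra031293, the homolog of CERK1, the shared kinase of chitin perception, rose in all 4 comparisons, by 1.83 ± 0.26 and 1.49 ± 0.25 with chitin and by 2.00 ± 0.26 and 0.96 ± 0.25 with flg22 at 30 and 180 min (limma, adjusted p at most 0.0044). Bra017563, the homolog of FLS2 that was tested, did not pass in any of them, with differences of -0.54, -0.23, -0.41 and 0.02 in the same order. Against its own controls its flg22 difference at 30 min was -0.84 (limma, adjusted p = 0.00123), and with replicate number as a block its chitin difference at 30 min passed (limma, adjusted p = 0.0317).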

How the data were processed

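The deposited tables held, per library and gene, FPKM, TPM and mean coverage per base. Per the labels and the study's methods, the authors trimmed TruSeq Stranded mRNA reads with Trimmomatic 0.36, mapped them with HISAT2 on build v1.5 of the B. rapa chromosomes and obtained FPKM and TPM with StringTie 2.0. The HISAT2 version and the options for strand and shared reads are not given in the sources used here. The deposited coverage signal served only to estimate depth, as the median over expressed genes of coverage divided by FPKM. Replicates were not pooled, and water libraries of 1 replicate number were kept as separate samples. The study's supplement gives separate water controls for chitin and flg22, pooled here unless stated. They were told apart by title number, and their depths rank in each replicate as the study's mapped reads do. The labels call replicates biological, and p-values measure the spread between these libraries. FPKM keeps no read counts, so no count test was run.

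Means were taken of log2(FPKM + 1), and differences on this scale understate the change of genes with low values. Genes with FPKM of at least 1 in 3 or more of 23 libraries were fitted together in all 6 conditions with limma 3.58.1 (trend) in R 4.3.3, with adjustment by Benjamini and Hochberg over 24384 genes, and the fit was tested on simulated data. The study's DESeq2 test was not repeated since the values are not counts. Other steps used python 3.11.15 with pandas 2.3.3. The members, gene lists and comparison groups were chosen with earlier results of these data known.

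Genes were named by a rule: the 10 widest gaps at 180 min, the 8 highest with chitin at 30 min, the 5 largest chitin values at 180 min, the 5 highest in water, the 3 extremes in each direction at 30 min, adjacent members and those nearest a limit, together with the receptor homologs. This gave 33 members. Alternatives were a pseudocount of 0.1, TPM, median-ratio scaling, other water averages, no filter, stricter limits, each treatment's own water controls, a replicate block and each library left out. Deviations of libraries with the same replicate number were correlated above 0.1 in all 3 numbers for chitin with water at both times and for flg22 with water at 30 min, but not for chitin with flg22. No 2 libraries shared more than 0.00244% of their values above 0. A table of RefSeq genes of another build matched 1 of 41020 identifiers and 0 members, so no sequence or gene name was taken from it.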

Additional observations from a re-analysis of the deposited data

Results flagged for a closer look

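In 13 of the 33 named members every flg22 library lay above every chitin library at 30 min and every chitin library above every flg22 library at 180 min, and this held in 57 of all 142. The change of order was not tested, the rule itself set the direction at 180 min, and the count was not made over all genes tested. The order at 30 min alone was found in 43.0% of members and 7.51% of all genes tested. It was found in 36.0% of the early genes lost with both and 33.7% of those kept with both. The log2 differences of chitin minus flg22 at 30 and 180 min were -1.09 and 3.33 in Bra011029, -0.62 and 1.66 in Bra011686, -1.25 and 2.60 in Bra011687, -1.94 and 1.68 in Bra012690, and -1.20 and 2.93 in Bra015475. They were -0.56 and 1.59 in Bra017764, -0.36 and 2.65 in Bra018771, -0.39 and 1.24 in Bra021502, and -0.15 and 1.68 in Bra021503. They were -2.16 and 1.52 in Bra027981, -1.92 and 2.63 in Bra032177, -0.73 and 1.75 in Bra035384, and -1.35 and 3.00 in Bra039193. With each treatment set against its own water controls, the difference at 30 min stayed below 0 in 9 of these 13 genes and was above 0 in 4, namely Bra017764, Bra021502, Bra021503 and Bra035384, and that at 180 min was above 0 in all 13.

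A single water library lay far from the others of its condition in 3 of 90 groups examined, where chance gives about 1 in 20. In Bra008667 replicate 3 with title number 17 held an FPKM of 40.1 at 30 min against 16.2 to 20.2 in the other 4. In Bra012890 the same library held 10.6 against 7.11 to 7.66. In Bra027981 replicate 1 with title number 1 held 17.1 against 2.41 to 3.36.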

How the results depend on the processing

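The number of members moved between 106 and 161 when each library was left out in turn, and 74 of the 142 were found in every one of these 23 selections. It was 190 with a pseudocount of 0.1 (109 shared), 129 with TPM (125 shared), 194 after median-ratio scaling (142 shared), 127 with the log2 of the mean FPKM (123 shared), 142 with no limit on the water difference and 63 with limits stricter by 0.25. With 1 water library per replicate number, the 32 choices gave 119 to 149 genes, and 59 members were found in all of them. With the study's own water controls for each treatment, run after the data were seen, it was 151 (120 shared).

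Members lower with chitin at 30 min numbered 0 with a pseudocount of 0.1, 0 with only the conditions compared, 0 with own water controls, 9 with TPM, 15 after median-ratio scaling, 7 with no filter and 12 with the replicate block, and 3 to 15 when each library was left out, while 0 were higher under each of these settings. Bra012690, Bra015475 and Bra032177 lost the call under a pseudocount of 0.1, with only the conditions compared and without chitin replicate 3. Receptor homologs that changed, LYK5 included here and below, numbered 3 to 6 with chitin at 30 min across libraries left out. The replicate block changed no other call of these homologs than that of Bra017563. Own water controls gave 6, 5, 8 and 6 changed homologs with chitin and flg22 at 30 min and chitin and flg22 at 180 min, and moved the calls of Bra017563 and Bra031434 at 30 min. Of 660 values of named members under alternatives, 622 kept their side of the threshold or moved by less than the spread between libraries. None was counted as reversed, but at 30 min a change of sign was counted only where either fit passed the test. Smaller changes of sign at 30 min are thus not in this count. The own water controls were not among the 660 values. FPKM of short genes and of genes near 0 limits the precision.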
